A study of Homo sapiens with 21 samples.

Results

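RNA levels of 39 genes of homologous recombination and the Fanconi pathway were measured in 21 RNA-seq libraries of IMR90 cells, a long-established human line of lung fibroblasts. The genes came from a list of 40 symbols and were kept where the normalised count, a read count divided by a size factor for its library, reached 10 in at least 3 libraries. MDC1, an adaptor that binds phosphorylated H2AX, was not kept, with 0 to 2 reads in each library. The 39 genes stand among 11579 genes that passed the same filter and 16383 genes listed. They comprised 7 DNA damage kinases and mediators, 8 end resection genes, 8 genes of the BRCA complexes and their mediators, 4 genes of strand exchange or its alternatives, 8 genes of the Fanconi core complex and 4 Fanconi effectors.

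The libraries formed 7 groups of 3. Proliferating cells were untreated, and no harvest day is given for them. The other 6 groups were irradiated to make them senescent, transfected with siRNA at 5 nM on day 4 and day 7 after irradiation, and harvested on day 10. Their siRNAs were the non-targeting controls NT3 and NT4, or siRNAs to CCND1, to CDK4, to CDK6, or to CDK4 and CDK6 together (dual knockdown). Cyclin D1 (CCND1) pairs with the kinases CDK4 and CDK6. Irradiation and transfection both separate the controls from proliferating cells and cannot be told apart there. Column headers carry a library code, and those of the proliferating libraries (113 to 115) form a run apart from the irradiated ones. What that run stands for is not given. The labels name 1 siRNA per target, and nothing in them says that replicates came from separate cultures, so p-values measure the spread between these libraries, which may be technical.

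Homologous recombination repairs a broken chromosome by copying the intact sister chromatid, and cells use it mainly in S and G2 phase. Nucleases trim the broken ends to single strands, BRCA complexes prepare these for the search, and the strand invades the matching sequence. The Fanconi pathway removes crosslinks between DNA strands: a core complex attaches ubiquitin to FANCD2 and FANCI, which bring in nucleases and recombination proteins. Many of these genes are transcribed as cells enter S phase, when CDK4 and CDK6 have phosphorylated RB and E2F factors are free. E2F factors bind short GC-rich elements near the start of such genes.

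RefSeq promoter windows (GRCh38.p14, from 250 bases before to 50 bases after the start) were given for 34 of the 39 genes. The E2F forms searched, on either strand, were TTCGCGC, the related form TTGGCGC and a further form, TTCCCGC. At least 1 of them was present in 18 of the 34 windows (52.9%), against 17.7% of the windows of all tested genes and 11.2% of all windows. The first 2 forms alone were in 6 windows (17.6%, against 8.44% of tested genes), and TTCCCGC, which was added after the windows had been read, was in 14 (41.2%, against 10.3%). The cell cycle element TTTGAA was in 5 (14.7%, against 9.93% of tested genes and 15.4% of all windows). The NF-Y box CCAAT was in 15 (44.1%, against 36.5% and 35.7%), and both were searched on either strand. Of the genes that fell in the dual knockdown 11 of 18 had an E2F form, and of the others 7 of 16. For the first 2 forms alone the counts were 3 of 18 and 3 of 16. For the added TTCCCGC they were 9 of 18 and 5 of 16, and the difference was not tested. The 4 sequences that follow run from 120 bases before the start to 30 bases from it. The first 3 belong to genes that fell strongly in senescent controls and again in the dual knockdown, and the last to a gene that fell in senescent controls and rose in the dual knockdown. Capitals mark E2F forms and, in POLQ, also TTTGAA. A match is a description of the letters only.

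RAD51AP1 (chr12:4538770-4538919, plus strand): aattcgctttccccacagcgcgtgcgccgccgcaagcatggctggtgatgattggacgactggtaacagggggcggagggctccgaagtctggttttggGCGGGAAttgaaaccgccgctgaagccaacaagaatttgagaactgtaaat

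POLQ (chr3:121545959-121546108, minus strand): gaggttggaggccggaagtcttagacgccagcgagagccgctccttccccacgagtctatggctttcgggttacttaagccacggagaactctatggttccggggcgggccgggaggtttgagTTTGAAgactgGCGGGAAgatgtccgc

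FANCD2 (chr3:10026317-10026466, plus strand): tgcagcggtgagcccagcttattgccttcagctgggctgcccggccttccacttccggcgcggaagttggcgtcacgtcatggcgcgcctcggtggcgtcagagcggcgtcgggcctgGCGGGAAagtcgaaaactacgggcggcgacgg

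XRCC3 (chr14:103715422-103715571, minus strand): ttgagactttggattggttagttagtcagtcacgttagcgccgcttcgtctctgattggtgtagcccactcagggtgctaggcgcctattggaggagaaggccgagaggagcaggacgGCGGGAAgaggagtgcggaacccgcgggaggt

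GCGGGAA, the reverse complement of TTCCCGC, stood in the 150 bases of all 4 genes, XRCC3 included. These 4 were picked for display and the form was added after the windows were read, so that match is no evidence of a pattern. It was in 14 of the 34 windows. BRCA1, BRCA2, EXO1 and FANCA, which fell in senescent controls and in dual knockdown, did not have it in their windows. Of these, EXO1 and FANCA held TTCGCGC or TTGGCGC on either strand, and BRCA1 and BRCA2 held no E2F form searched. A gene had 1 window at 1 start, and other starts were not searched. The gene spans in the same build were chromosome 12 from 4538890 to 4560047 for RAD51AP1, chromosome 3 from 121431431 to 121545988 for POLQ, chromosome 3 from 10026437 to 10101932 for FANCD2 and chromosome 14 from 103697617 to 103715451 for XRCC3.

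Library totals over the listed genes ran from 12892442 to 21822152 reads. The siRNAs left 11.8% of the control mean of CCND1, 8.67% of CDK4 and 16.4% of CDK6, and in the dual knockdown 9.41% of CDK4 and 20.6% of CDK6. All 11 fibroblast markers passed the filter. Of 5 endothelial markers CDH5 had 0 to 3 reads and PECAM1 1 to 17, but TEK had 1650 to 4878, and 3 passed. Of 6 leukocyte markers PTPRC had 0 to 8 reads and CD3E 0 to 2, but CD68 had 611 to 1587, and 2 passed. Of 6 epithelial markers SFTPC had 0 to 3 reads and EPCAM 11 to 46, but KRT19 had 135 to 553 and KRT7 49 to 403, and 3 passed. The summed values of these cell type markers moved with the groups. The fibroblast sum was 606490 to 622740 in proliferating cells, 453460 to 512410 in NT3 and 537280 to 564140 in NT4. It was 546710 to 596840 in CCND1, 543620 to 595190 in CDK4, 523050 to 574950 in CDK6 and 683550 to 868680 in dual knockdown. The endothelial sum was 1763 to 1889 in proliferating cells, 2058 to 3718 in the controls, 2888 to 3283 in CCND1, 2220 to 2512 in CDK4, 4092 to 4509 in CDK6 and 3441 to 3694 in dual knockdown. The epithelial sum was 211 to 228 in proliferating cells, 466 to 627 in the controls, 663 to 717 in CCND1, 426 to 549.6 in CDK4, 789 to 839.7 in CDK6 and 712 to 743 in dual knockdown. The leukocyte sum was 654 to 688 in proliferating cells, 894 to 1421 in the controls, 884 to 1055 in CCND1, 1503 to 1610 in CDK4, 1057 to 1130 in CDK6 and 936 to 1008 in dual knockdown. NT3 replicate 3 stood apart from its group, with a chi-square per degree of freedom of 39.2 and 60.2 against the other NT3 libraries, where every other pair within a group gave 2.98 to 8.07. Counts with and without it are given for each comparison that used it. The summed value of 16 markers of cycling cells was 47991 to 51743 in proliferating cells, 6203 to 7025 in NT3 and 6127 to 6289 in NT4. It was 3957 to 4232 in CCND1 knockdown, 8100 to 8975 in CDK4 knockdown, 3140 to 4285 in CDK6 knockdown and 1554 to 1796 in the dual knockdown. The part of these sums in the results was not tested. In bulk RNA, fewer cells that express a gene and less RNA of it per cell cannot be told apart.

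Most of the recombination and Fanconi genes had lower RNA levels in irradiated controls than in proliferating cells. Of the 39 genes, 34 fell (limma, adjusted p under 0.05 over all tested genes) and none rose, where 36.1% of all tested genes fell and 32.6% rose (68.6% in either direction). None of the 39 rose at an unadjusted p under 0.05 either, and edgeR and DESeq2 on the recovered reads gave the same 34 and 0. The median log2 difference, taken on normalised count plus 1, was -1.53, against -0.03 over all tested genes. For 33 of them every control library was below every proliferating library, as for 28.9% of all tested genes. The control mean was below 25% of the proliferating mean for 13 genes and below 50% for 27, and these shares were not counted over all tested genes. Centring each library on its median raised all log2 differences by 0.11 and took the share of calls that were higher, over all genes, from 47.4 to 57.9%. After it 33 of the 39 genes fell, with ATR as the one lost. Without NT3 replicate 3, 34 fell and 1, TP53BP1, rose.

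**Figure D1:**
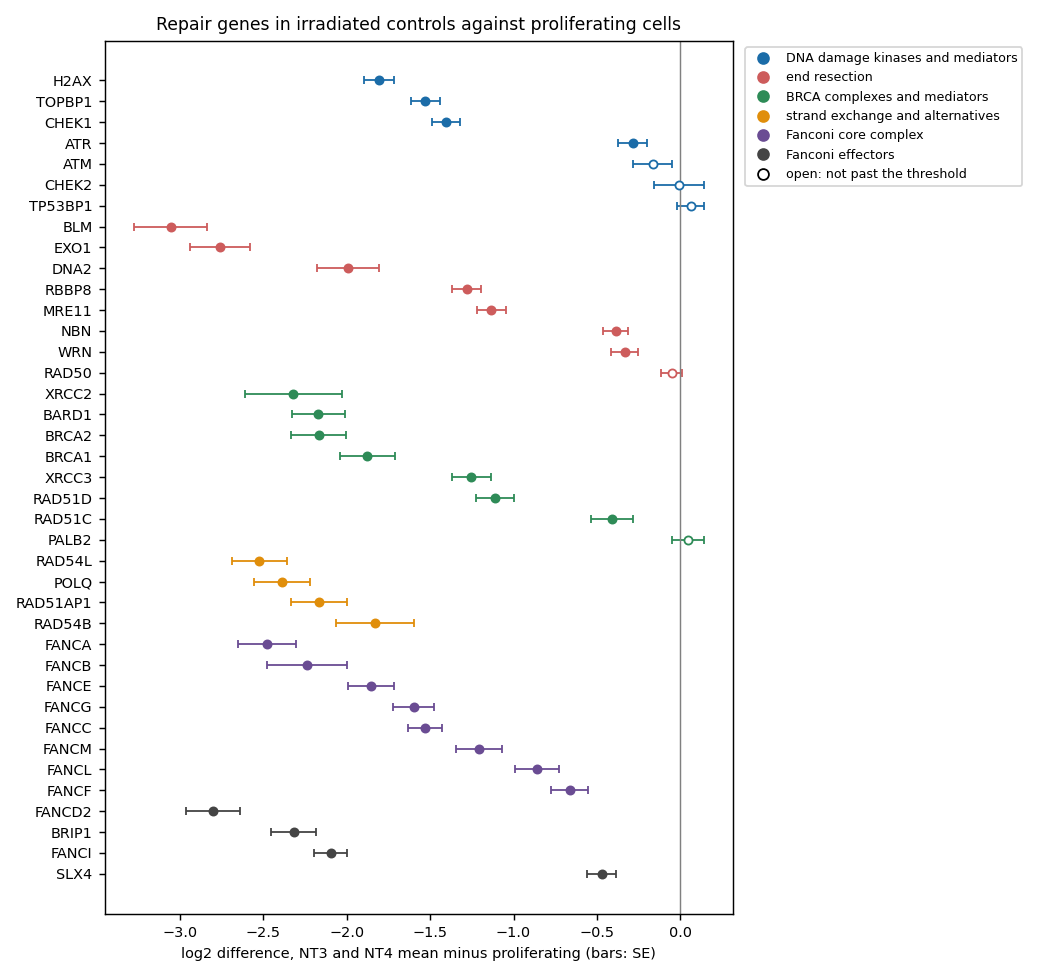
Log2 difference of each of 39 repair genes between irradiated controls (NT3 and NT4, 6 libraries) and proliferating cells (3 libraries), with bars for the SE, grouped by role; filled points passed the test and open points did not. BLM, EXO1 and FANCD2 lie farthest left, and ATM, CHEK2, TP53BP1, RAD50 and PALB2 are open points near 0.

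By role, all 4 genes of strand exchange or its alternatives, POLQ among them, fell (median log2 difference -2.28). So did all 4 Fanconi effectors (-2.21) and all 8 core complex genes (-1.57 as the median, from -2.48 to -0.66). Among the BRCA and mediator genes 7 of 8 fell (median -1.56), and in end resection 7 of 8 (median -1.21). Of the 7 kinases and mediators 4 fell, with a median of -0.29. The 5 genes that did not pass were ATM at -0.17, CHEK2 at -0.0077, TP53BP1 at 0.061, RAD50 at -0.053 and PALB2 at 0.046, all log2 differences. With NT4 alone as the control TP53BP1 passed as higher (0.26), and with NT3 alone ATM passed as lower (-0.33). ATM and RAD50 act in break sensing, CHEK2 relays the ATM signal, TP53BP1 limits resection, and PALB2 joins BRCA1 to BRCA2.

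Few of these genes differed between the non-targeting siRNAs. Between NT4 and NT3, 2 of the 39 were higher and 1 lower in NT4, where 14.7% and 13.1% of all tested genes were (27.8% in either direction). TP53BP1 stood at 1809, 1898 and 1311 in NT3 and 2195, 2091 and 2268 in NT4, a log2 difference of 0.40 (SE 0.093, adjusted p = 0.00268). NT3 replicate 3 was the lowest of these 6, and the groups did not overlap. SLX4, a scaffold for nucleases, was 222, 223 and 186 in NT3 and 283, 242 and 266 in NT4 (log2 difference 0.33, SE 0.099, adjusted p = 0.0168). CHEK1, the kinase that ATR activates, was 347, 349.8 and 329 in NT3 and 303, 264 and 275 in NT4 (log2 difference -0.29, SE 0.098, adjusted p = 0.0339). NT3 and NT4 libraries overlapped for neither of these genes. A fit of these 6 libraries alone called none of the 39, with 4 at an unadjusted p under 0.05, where edgeR called 3 and DESeq2 5. Leaving out 1 library ended the CHEK1 call in 4 of 6 fits and the SLX4 call in 3 of 6. The count without NT3 replicate 3 was 4, and without NT3 replicate 2 it was 7.

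Each knockdown was set against the same 6 control libraries, so the comparisons share their controls. CCND1 knockdown lowered 13 of the 39 genes and raised 1, where 14.4% and 16.7% of all tested genes moved in those directions (31.0% in either). CDK6 knockdown lowered 17 and raised 3, where 20.8% and 21.1% of all genes did (41.9% in either direction). Dual knockdown lowered 22 and raised 3, against 21.5% and 22.5% of all genes (44.0% in either direction), and for 19 genes every dual library was below every control, as for 14.5% of all genes. CDK4 knockdown raised 3 and lowered none, against 8.46% and 7.55% of all genes (16.0% in either direction). None was lower at an unadjusted p under 0.05, and edgeR and DESeq2 each gave 4 higher and 0 lower. The median log2 difference was -0.15 for CCND1, 0.09 for CDK4, -0.25 for CDK6 and -0.48 for dual knockdown, while the median over all genes lay between -0.010 and 0.0031. Fits of the compared groups alone kept none of the 3 dual rises and not the CCND1 rise, with 20 lower in dual and 10 lower in CCND1 knockdown. Without NT3 replicate 3 the genes that passed numbered 16, 3, 22 and 27 in that order, with BLM and EXO1 then also lower in CCND1 knockdown and WRN and TOPBP1 in dual knockdown. The CCND1 count was 9 without CCND1 replicate 3, NT3 replicate 1 or NT4 replicate 3, and the CDK6 count was 12 without CDK6 replicate 1.

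**Figure D2:**
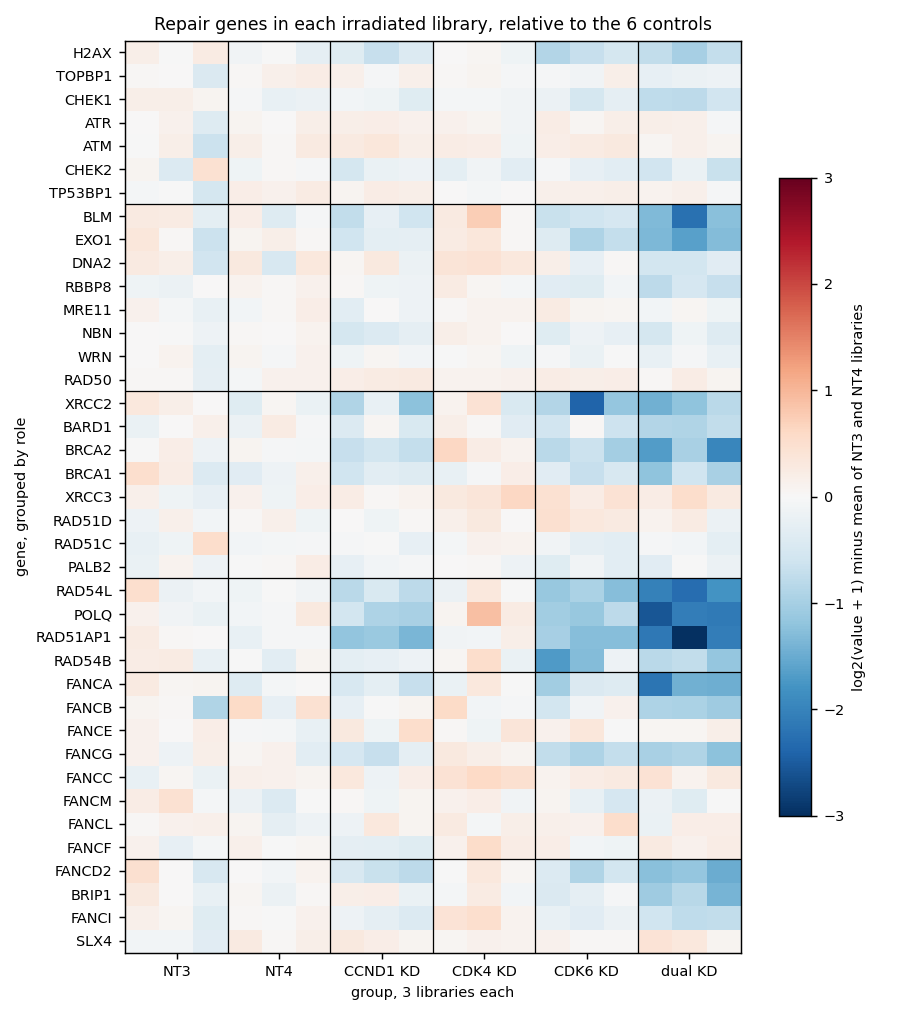
Log2(value + 1) of 39 repair genes (rows, by role) in 18 irradiated libraries (columns, 3 per group) relative to the mean of the 6 NT3 and NT4 libraries. Blue is lower and red higher, and the darkest blue is RAD51AP1 in dual knockdown replicate 2.

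Set beside proliferating cells, the dual mean was lower for 37 of the 39 genes and below 10% of the proliferating mean for 10. These are counts of means without a test. The share of all tested genes was not counted, so they do not set the 39 genes apart from others.

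Among genes of strand exchange or its alternatives, all 4 fell in CDK6 knockdown and all 4 in dual knockdown, where their median was -2.15. RAD51AP1, which stimulates invasion of the matching duplex, was 422, 443 and 502 in proliferating cells, 119, 103.6 and 101.9 in NT3 and 85.7, 97.3 and 98.1 in NT4. It was 43.6, 45.9 and 38.3 in CCND1, 93.8, 95.4 and 113.8 in CDK4, 49.9, 41.0 and 41.2 in CDK6 and 22.1, 10.9 and 23.0 in dual knockdown. All CCND1, CDK6 and dual libraries were below all controls, CDK4 libraries overlapped with the controls, and all dual libraries were below all CDK6 libraries. The log2 difference from controls was -2.44 (SE 0.17, adjusted p = 2.37e-10) in dual knockdown, -1.18 (SE 0.17, adjusted p = 1.04e-05) in CDK6 knockdown and -1.22 (SE 0.17, adjusted p = 1.35e-05) in CCND1 knockdown. In CDK4 knockdown it was 0.0013 (SE 0.17, adjusted p = 0.997). The lowest dual library held 10 reads of the gene, so its own level is imprecise.

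POLQ encodes the polymerase of theta-mediated end joining, which can stand in for recombination. Its values were 557, 509.7 and 575 in proliferating cells, 113.2, 96.5 and 89.8 in NT3, 97.9, 101.2 and 127 in NT4 and 16.6, 24.0 and 23.0 in dual knockdown. CDK4 knockdown gave 108.9, 194 and 123, CDK6 knockdown 49.9, 46.6 and 59.4 and CCND1 knockdown 70.2, 54.4 and 52.0. Dual, CDK6 and CCND1 libraries all lay below the controls, and 1 CDK4 library lay above all others that were irradiated. The log2 difference was -2.25 (SE 0.17, adjusted p = 5.47e-10) in dual knockdown and -0.82 (SE 0.17, adjusted p = 0.000791) in CCND1 knockdown. RAD54L, a translocase that acts in strand exchange, was 362, 332 and 391 in proliferating cells, 88.2, 54.6 and 58.3 in NT3 and 56.8, 61.3 and 57.7 in NT4. It was 35.1, 44.8 and 35.3 in CCND1, 54.9, 77.1 and 61.8 in CDK4, 27.5, 31.7 and 24.9 in CDK6 and 14.3, 12.01 and 17.0 in dual knockdown, and the controls lay above all CCND1, CDK6 and dual libraries. Against proliferating cells the controls differed by -2.52 (SE 0.17, adjusted p = 1.1e-11), and against controls the dual knockdown differed by -2.04 (SE 0.17, adjusted p = 2.18e-09), CDK6 knockdown by -1.12 (SE 0.17, adjusted p = 1.31e-05) and CCND1 knockdown by -0.68 (SE 0.17, adjusted p = 0.00337). Its relative RAD54B was 79.9, 81.6 and 58.3 in NT3, 67.9, 54.5 and 72.1 in NT4 and 20.4, 27.0 and 61.3 in CDK6 knockdown, where replicate 3 overlapped with the controls (log2 difference -1.05, SE 0.23, adjusted p = 0.00107).

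**Figure D3:**
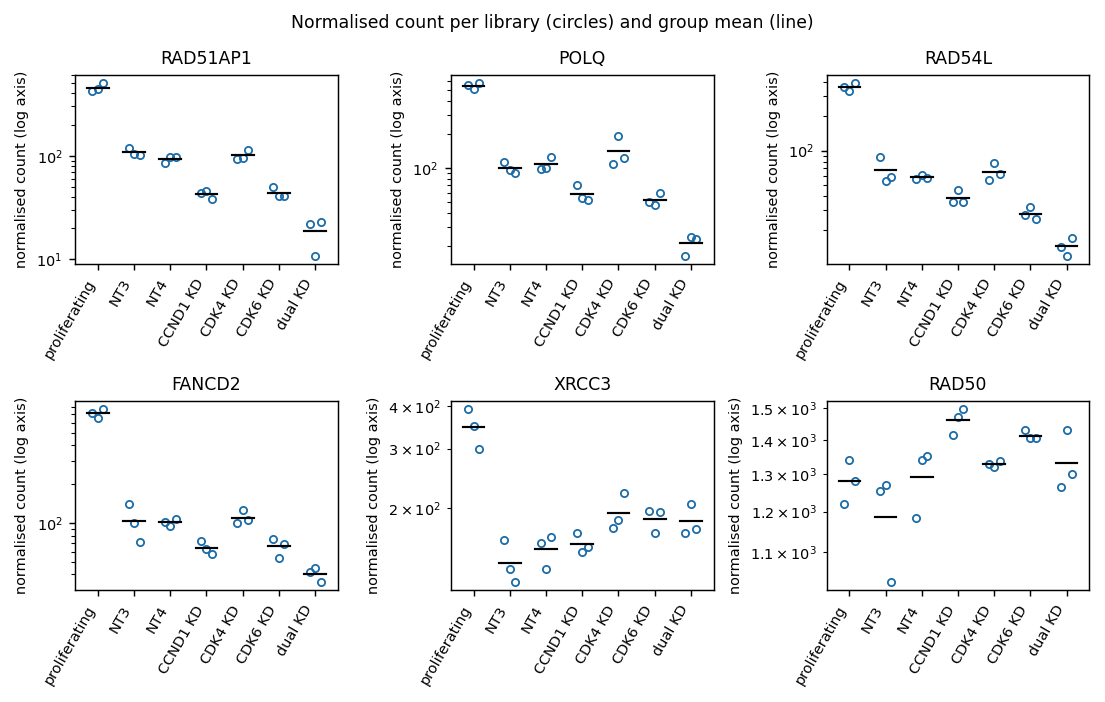
Normalised count of 6 repair genes in each of 21 libraries (circles) with the group mean (line), on a log axis whose range differs between panels. RAD51AP1, POLQ, RAD54L and FANCD2 step down from proliferating cells to controls and again to the dual knockdown, XRCC3 in the dual knockdown lies below proliferating cells and above all controls, and RAD50 covers a narrow range in all groups.

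Among end resection genes BLM and EXO1 had the largest falls in senescent controls. BLM, a helicase that works with the nuclease DNA2, was 307, 291 and 286 in proliferating cells, 41.5, 41.1 and 27.9 in NT3, 40.1, 26.3 and 33.7 in NT4 and 13.2, 6.55 and 14.0 in dual knockdown. Every control was below every proliferating library and above every dual library, the lowest of which held 6 reads. Controls differed from proliferating cells by -3.05 (SE 0.22, adjusted p = 5.68e-11) on the log2 scale, the largest fall among the 39 genes. EXO1, a resection nuclease, was 376, 429 and 506 in proliferating cells, 81.0, 64.6 and 40.05 in NT3, 66.8, 71.0 and 64.4 in NT4 and 24.3, 19.7 and 25.03 in dual knockdown. Its groups were in the same order without overlap, and controls differed from proliferating cells by -2.76 (SE 0.18, adjusted p = 9.47e-12). RBBP8, which starts resection with the MRE11 complex, fell to 41.2% of the proliferating mean in controls and to 26.1% in dual knockdown. The DNA2 fall in dual knockdown (log2 difference -0.48) did not pass against NT3 alone (-0.44) or NT4 alone (-0.52). It was also lost after quantile normalization (-0.20) and when only the compared groups were fitted.

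The MRE11, RAD50 and NBN genes encode 1 complex and gave different calls. MRE11 fell in senescent controls (log2 difference -1.13) and passed in none of the knockdowns against controls. NBN fell in senescent controls (-0.39) and also in CCND1 (-0.40), CDK6 (-0.26) and dual knockdown (-0.35). RAD50 was 1219, 1341 and 1283 in proliferating cells, 1255, 1269 and 1032 in NT3, 1183, 1342 and 1353 in NT4, 1414, 1470.2 and 1494.8 in CCND1 and 1429, 1405 and 1405 in CDK6 knockdown. All CCND1 and CDK6 libraries were above all 6 controls, of which NT3 replicate 3 was the lowest. RAD50 rose by 0.24 (SE 0.064, adjusted p = 0.00623) in CCND1 and 0.20 (SE 0.064, adjusted p = 0.0172) in CDK6 knockdown, and neither passed against NT4 alone (0.18 and 0.13). The resection helicase WRN fell by 0.33 in senescent controls and did not pass in the knockdowns with all libraries used; without NT3 replicate 3 it fell in dual knockdown (-0.22).

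In the BRCA and mediator group, BRCA1, BARD1, BRCA2 and XRCC2 were lower in dual knockdown than in controls, while PALB2, RAD51C and RAD51D did not pass. PALB2 was lower in CDK6 knockdown (log2 difference -0.27). That call was lost against NT3 alone (-0.18) and when only the compared groups were fitted. BRCA2, a mediator that acts on single-stranded DNA, stood at 22.2% of the proliferating mean in controls and 7.9% in dual knockdown, and BRCA1 at 27.8% and 14.5%. XRCC2 was 36.3, 32.6 and 29.1 in NT3, 22.3, 30.2 and 25.01 in NT4, 14.9, 24.5 and 11.8 in CCND1, 15.3, 4.66 and 12.5 in CDK6 and 9.93, 12.01 and 16.0 in dual knockdown. CDK6 knockdown lay below all controls, with 5 reads in its lowest library, and CCND1 knockdown overlapped with them. The log2 difference was -1.48 (SE 0.29, adjusted p = 0.000326) in CDK6 and -0.79 (SE 0.29, adjusted p = 0.0433) in CCND1 knockdown, and the CCND1 value lost its call in 6 of 9 fits that left out a library.

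XRCC3 and RAD51D, mediators of the same gene family as XRCC2, rose in knockdowns. XRCC3 was 391, 350.1 and 299 in proliferating cells, 161, 133 and 121 in NT3 and 158, 132 and 164 in NT4. It was 175, 185 and 222 in CDK4, 196, 169 and 194 in CDK6 and 169, 206 and 173 in dual knockdown, all above all 6 controls and below all proliferating libraries. XRCC3 rose by 0.42 (SE 0.12, adjusted p = 0.0152) in CDK4, 0.37 (SE 0.12, adjusted p = 0.0136) in CDK6 and 0.34 (SE 0.12, adjusted p = 0.0218) in dual knockdown. RAD51D was 98.6, 123 and 104.4 in NT3, 113.5, 124 and 100.99 in NT4 and 155, 137 and 132 in CDK6 knockdown (log2 difference 0.35, SE 0.11, adjusted p = 0.0172). None of these 4 rises passed against NT4 alone (0.35, 0.30, 0.27 and 0.33).

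Fanconi core genes all fell in senescent controls but divided after knockdown. FANCA, FANCB and FANCG fell in dual knockdown, FANCC rose, and FANCE, FANCF, FANCL and FANCM did not pass. FANCB held 14 reads in each dual library. FANCA was 547, 551 and 567 in proliferating cells, 119, 102.9 and 105.6 in NT3, 75.7, 95.4 and 100.03 in NT4 and 20.97, 36.0 and 35.0 in dual knockdown. No dual library reached the controls, and the log2 difference was -1.70 (SE 0.17, adjusted p = 6.77e-08). FANCC was 404, 412 and 403 in proliferating cells, 119, 146 and 121 in NT3, 157, 154 and 147 in NT4, 188, 212 and 195 in CDK4 and 191, 152 and 171 in dual knockdown. CDK4 libraries lay above all the controls and dual libraries overlapped with them. FANCC rose by 0.50 (SE 0.10, adjusted p = 0.00181) in CDK4 knockdown and by 0.28 (SE 0.10, adjusted p = 0.0306) in dual knockdown, and the dual value did not pass against NT4 alone (0.16). FANCL, the ubiquitin ligase of the complex, stood at 54.9% of the proliferating mean in controls and 57.8% in dual knockdown.

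FANCD2 and FANCI, the pair that the core complex ubiquitinates, both fell in senescent controls and in dual knockdown. FANCD2 was 713, 656 and 759 in proliferating cells, 140.1, 100.7 and 71.6 in NT3, 101.3, 94.4 and 107.7 in NT4 and 41.9, 44.8 and 35.0 in dual knockdown. Controls differed from proliferating cells by -2.80 (SE 0.16, adjusted p = 1.15e-12), with no overlap, and stood at 14.5% of their mean, against 5.7% in dual knockdown. FANCI was 388, 368 and 272 in NT3, 358, 350.3 and 387 in NT4, 469.7, 497 and 379.8 in CDK4 and 233, 209 and 211 in dual knockdown. Dual libraries lay below all controls, and CDK4 libraries overlapped with them. FANCI rose by 0.34 (SE 0.10, adjusted p = 0.022) in CDK4 knockdown, which did not pass against NT4 alone (0.29), and fell by 0.69 in dual knockdown. BRIP1, a helicase bound by BRCA1, fell in dual knockdown (log2 difference -1.10) and did not pass in the single knockdowns, except in CDK6 knockdown without NT3 replicate 3 (-0.31). SLX4 rose by 0.27 (SE 0.086, adjusted p = 0.0153) in dual knockdown, from 222, 223 and 186 in NT3 and 283, 242 and 266 in NT4 to 313, 292 and 247, and did not pass against NT4 alone (0.10). Dual and control libraries overlapped for SLX4.

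Of the kinases and mediators, CHEK1, CHEK2 and H2AX fell in dual knockdown and ATM, ATR, TOPBP1 and TP53BP1 did not pass. The CHEK2 fall (-0.47) did not pass against NT4 alone (-0.43), after quantile normalization (-0.33) or when only the 9 dual knockdown and control libraries were fitted (-0.47). TOPBP1 fell in dual knockdown without NT3 replicate 3 (-0.27) and against NT4 alone (-0.32). Against NT3 alone TP53BP1 rose in dual (0.28), CCND1 (0.35) and CDK6 knockdown (0.36). Against the same NT3 libraries ATM rose in CCND1 (0.42) and CDK6 knockdown (0.41). CHEK1 stood at 37.8% of the proliferating mean in controls and 23.0% in dual knockdown. H2AX, the histone whose phosphorylated form marks breaks, fell by 1.81 in senescent controls, by 0.49 in CCND1, 0.70 in CDK6 and 0.82 in dual knockdown. H2AX also makes a transcript without a poly(A) tail, which poly(A) capture does not take up. ATM and TP53BP1 means in the knockdowns lay between 94.98 and 116.2% of the proliferating mean.

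The dual knockdown was next set against the added differences of its component single knockdowns. Its departure from this sum equals the effect of CDK4 siRNA in cells with CDK6 siRNA less its effect in cells without it. Single and dual knockdowns are all listed at 5 nM, and whether this is per siRNA or the total is not given. The amount of each siRNA, or the total, may thus differ between them. It was below 0 for 10 of the 39 genes past the threshold and above 0 for none, where 3.71% and 2.63% of all tested genes were (6.35% in either direction). None was above 0 at an unadjusted p under 0.05, edgeR called 8 and DESeq2 11, all below 0. The largest were POLQ (-1.67, SE 0.26, adjusted p = 0.000214), BLM (-1.35, SE 0.34, adjusted p = 0.0188), RAD51AP1 (-1.26, SE 0.26, adjusted p = 0.00425) and FANCA (-1.12, SE 0.26, adjusted p = 0.0131). For RAD51AP1, adding CDK4 siRNA to control cells gave a log2 difference of 0.0013, and adding it to CDK6 knockdown gave -1.26. For POLQ the pair was 0.40 and -1.26. A fit without the proliferating and CCND1 libraries called 5 genes, BLM not among them, and without NT3 replicate 3 the count was 11. The values without CDK4 replicate 2 (5 genes), CDK6 replicate 3 (6) and dual replicate 1 (6) were also lower.

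**Figure D4:**
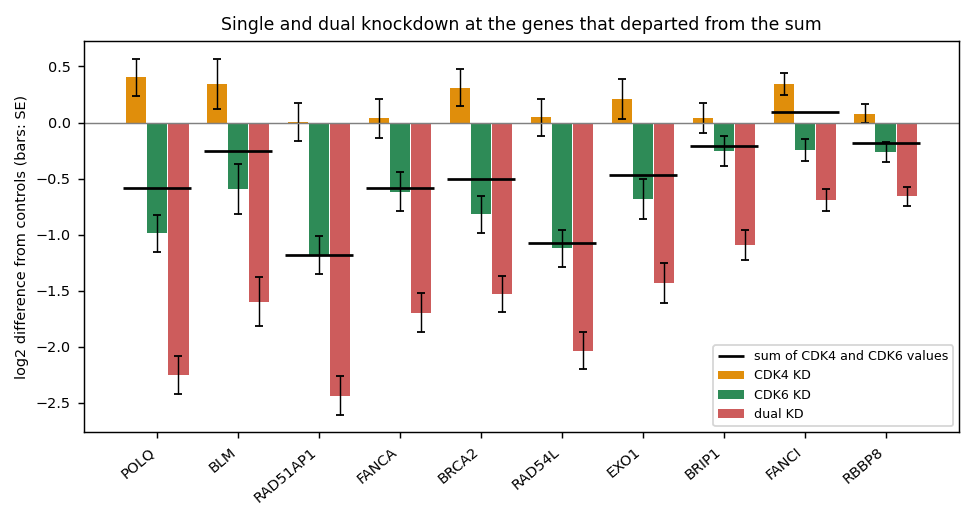
Log2 difference from controls in CDK4, CDK6 and dual knockdown (bars, with SE) for the 10 repair genes whose dual value departed from the sum of the single values (black line). Every dual bar ends below its line. CDK4 bars end at or above 0, of which FANCI alone passed the test, and CDK6 bars end below 0.

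Compared directly, CDK6 knockdown was lower than CDK4 knockdown for 15 of the 39 genes and higher for none, where 17.3% and 17.5% of all tested genes were (34.8% in either direction). A fit of these 6 libraries alone gave 18 lower and 1 higher, TP53BP1 (0.16). The edgeR fit gave 15 and DESeq2 17, all lower, and none was higher at an unadjusted p under 0.05. The differences were largest for XRCC2 (-1.50, SE 0.34, adjusted p = 0.00128), POLQ (-1.39, SE 0.19, adjusted p = 6.88e-06), RAD51AP1 (-1.18, SE 0.20, adjusted p = 6.66e-05) and RAD54B (-1.17, SE 0.27, adjusted p = 0.00171). Dual knockdown was lower than CDK6 knockdown for 12 and higher for none, where 6.94% and 6.05% of all genes were (13.0% in either direction). Both edgeR and DESeq2 gave 12 each, and none was higher at an unadjusted p under 0.05. Here the leading genes were POLQ (-1.26, SE 0.19, adjusted p = 9.72e-05), RAD51AP1 (-1.26, SE 0.20, adjusted p = 0.000128), FANCA (-1.08, SE 0.20, adjusted p = 0.000752) and BLM (-1.004, SE 0.26, adjusted p = 0.0106). XRCC2 and RAD54B did not pass here, where dual minus CDK6 knockdown was 0.32 and 0.15. Without CDK6 replicate 3 the second count was 7.

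Other genes of the pathway were read against the share of all tested genes, of which 36.1% fell and 32.6% rose in senescent controls, and 21.5% fell and 22.5% rose in dual knockdown. A second list of recombination and Fanconi genes had 48 symbols, of which 39 were tested. Of these 39, 28 fell and 1 rose in senescent controls (median log2 difference -0.56), and 16 fell and 4 rose in dual knockdown (median -0.16). UBE2T, the ubiquitin-conjugating enzyme that works with FANCL, fell by 2.26 in senescent controls, and USP1, which removes the ubiquitin from FANCD2, fell by 1.94. PSMC3IP, a cofactor of strand exchange, fell by 1.56 in dual knockdown. Among 17 further damage checkpoint genes, 12 fell and 2 rose in senescent controls (median -0.91) and 8 fell and 2 rose in dual knockdown (median -0.11). CLSPN, which couples ATR to CHEK1, fell by 2.45 in senescent controls and fell by 2.76 in dual knockdown.

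Lists of repair genes outside recombination had medians nearer 0 than the 39 genes in senescent controls and in dual knockdown. Against the same shares of all tested genes (36.1% and 32.6%, then 21.5% and 22.5%), the excision repair counts lay near the background. Of 13 end joining genes 7 fell and 2 rose in senescent controls (median -0.17), and 1 fell and 1, XRCC4, rose in dual knockdown (median 0.08). Of 20 nucleotide excision repair genes 8 fell and 5 rose in senescent controls (median 0.02), and 4 fell and 3 rose in dual knockdown (0.02). Of 7 mismatch repair genes 5 fell in senescent controls (71.4%, median -0.54), and 1 fell and 1 rose in dual knockdown. In senescent controls that median was close to the -0.56 of the second recombination and Fanconi list. All 28 replication genes fell in senescent controls (median -2.18) and 25 in dual knockdown (median -1.06). The 16 cycling cell markers all fell in senescent controls (median -3.05) and in dual knockdown (median -2.22), and 9 rose in CDK4 knockdown. The difference between lists was not tested.

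**Figure D5:**
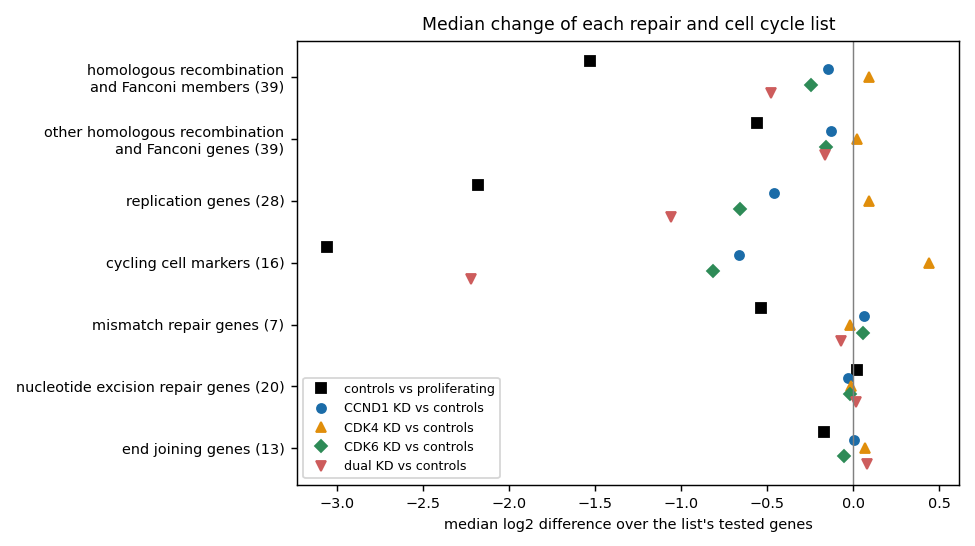
Median log2 difference over the tested genes of 7 lists (numbers of genes in brackets) in 5 comparisons. The recombination and Fanconi genes lie between the replication genes and the end joining and excision repair genes in senescent controls (black squares) and in dual knockdown (red triangles). In senescent controls the second list of recombination and Fanconi genes lies next to the mismatch repair genes.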

How the data were processed

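Each gene has 1 deposited signal value in each library, which the file headers call normalised counts. The largest Entrez number (the NCBI gene identifier) among the deposited genes is 140467, so genes with higher numbers are absent. The lists and the background of all tested genes share this limit. Every value was a whole multiple, within 0.01, of a step specific to its library, so the authors' values are read counts divided by 1 size factor (100% came out whole). The submitters' processing notes name Trimmomatic 0.38.1, HISAT2 2.2.1, featureCounts 2.0.3, DESeq2 2.11.40.8, FastQC 0.74, MultiQC and the build hg38 (GRCh38), without roles or order. Because the signal is not raw counts, values were tested with limma 3.58.1 (R 4.3.3) after log2 transformation with a pseudocount of 1. The fit had 1 mean per group over all 21 libraries and a trended variance. Tests were two-sided and adjusted by Benjamini-Hochberg over 11579 genes (value of 10 or more in at least 3 libraries) in each of 9 comparisons, at a threshold of 0.05. On this scale, fold changes of low genes are understated. The fit was run on simulated counts whose spread followed the same rule for every gene, with no outlying library. That run does not measure how reliable the calls in these data are.

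Groups follow the labels. Columns name the group and a library code that no label holds, so replicate numbers follow column order and are names only. Alternatives, with edgeR 4.0.16 and DESeq2 1.42.0 on the recovered reads among them, are in the closing section. The genes and lists were chosen with earlier results of these data known. In each comparison full statistics go to at most the 4 largest falls and 3 largest rises past the threshold and to genes called against the majority; from each list at most 4 are named. FANCI in dual knockdown, H2AX, NBN and genes given for their place in a complex are shown beyond that rule. How reads shared by similar or overlapping genes were assigned is not given in the sources used here. Normalised counts are not scaled by length, so levels are not compared between genes. Promoters and gene spans are from RefSeq (GRCh38.p14). Read totals range from 12892442 to 21822152, and genes with few reads have large counting error.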

Additional observations from a re-analysis of the deposited data

Results flagged for a closer look

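For 10 of the 39 genes the effect of CDK4 siRNA differed between cells with and without CDK6 siRNA by the interaction term (limma, adjusted p under 0.05), and each was lower than the sum of the single knockdowns. The departures in log2 units were -1.67 for POLQ, -1.35 for BLM, -1.26 for RAD51AP1, -1.12 for FANCA and -1.02 for BRCA2. They were -0.96 for RAD54L, -0.96 for EXO1, -0.88 for BRIP1, -0.79 for FANCI and -0.48 for RBBP8. In cells without CDK6 siRNA, CDK4 siRNA gave 0.0013 for RAD51AP1 to 0.40 for POLQ, and of the 10 genes FANCI alone passed (0.34, adjusted p = 0.022). In cells with CDK6 siRNA it gave -1.26 for POLQ and RAD51AP1, -1.08 for FANCA, -1.004 for BLM and -0.40 for RBBP8, and all 10 passed. The 16 cycling cell markers all departed in the same direction, and their part in the result was not tested.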

How the results depend on the processing

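The columns carry no replicate number that the labels hold, so no labelled pairing of libraries could be fitted. Header codes form 3 sets with 1 library of each irradiated group, but libraries of a set did not deviate together (mean correlation across genes 0.023 over 45 pairs, against -0.011 over 90 others). With these sets as a block in the 18 irradiated libraries, chosen after seeing the data, calls numbered 3 for NT4 against NT3, 11 for CCND1, 3 for CDK4, 19 for CDK6, 23 for dual knockdown, 7 for the departure, 15 for CDK6 against CDK4 and 12 for dual against CDK6 knockdown. The same libraries without the block gave 9 for CCND1 (main 14).

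Fits of the compared groups only gave 0 for NT4 against NT3, 10 for CCND1 (0 higher), 1 for CDK4, 20 for dual knockdown (0 higher, against 3), 5 for the departure and 19 for CDK6 against CDK4 (1 higher, against 0). NT4 alone as control gave 1 for CDK4 and 13 for CDK6, quantile normalization 9 for CCND1 and 6 for the departure, and DESeq2 5 for NT4 against NT3. The cause was not tested. Leaving out 1 library at a time gave 32 to 35 calls in senescent controls against proliferating cells, 2 to 7 for NT4 against NT3, 9 to 16 for CCND1, 2 to 4 for CDK4, 12 to 22 for CDK6, 21 to 27 for dual knockdown, 5 to 12 for the departure, 14 to 16 for CDK6 against CDK4 and 7 to 11 for dual against CDK6 knockdown.

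None of 136 calls of a gene in a comparison changed sign in the alternatives run. Calls lost numbered 26 with compared groups only, 18 with quantile normalization, 7 with no filter, 3 with edgeR, 1 with DESeq2, and 2 each with pseudocounts of 0.1 and 10, with median centring and without a variance trend. NT4 alone as control lost 21 and NT3 alone 6 of the calls they could test, and a mean of at least 100 lost 0 of 110. BLM, XRCC2, RAD51AP1, RAD54L, FANCB and POLQ had 5 to 15 reads in their lowest library, so small changes there were not detectable.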

Other observations

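MDC1, the listed gene that did not pass the filter, lies on chromosome 6. Of 54 protein-coding genes within 1 Mb of it, 50 (92.6%) did not pass the filter and 20 had 0 reads in every library. Elsewhere 3817 of 15174 protein-coding genes (25.2%) did not pass.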
